A study of Mus musculus with 6 samples.

Results

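The AP-1 and immediate early genes were followed in RNA sequencing of haematopoietic stem cells (HSCs) sorted from the mouse fetal liver at E14.5 (days of embryonic development). The set comprised 10 genes taken by name from the count lists, out of 38926 genes in all: Fos, Fosb, Jun, Junb, Jund, Egr1, Ier2, Ier3, Atf3 and Dusp1. All 10 were present, and 9 passed the filter on low counts, which Fosb did not. Both genotypes carried Vav-Cre, a Cre recombinase driven by the Vav promoter in blood-forming cells. Controls were Vav-Cre; Dpy30F/+, with 1 floxed and 1 intact allele of Dpy30, and knockouts were Vav-Cre; Dpy30F/-, with 1 floxed and 1 null allele, so that the controls also carried Cre and could lose 1 allele. Dpy30 encodes a core subunit of the complexes that methylate lysine 4 of histone H3. There were 3 libraries of each genotype, 1 of each from each of 3 litters, and the library number is the litter number.

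AP-1 is a dimeric transcription factor. JUN proteins pair with each other or with FOS or ATF proteins through a leucine zipper, and the dimers bind short DNA motifs. Most of these genes are immediate early genes: growth factors, cytokines or stress act through MAP kinases on factors already bound at their promoters, transcription starts within minutes with no need for new protein, and the short-lived mRNAs then decay. The same genes rise when tissue is dissociated and cells are sorted, so their level in sorted cells is also read as a check for stress from isolation.

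The proximal promoters of Fos, Jun and Dusp1 are shown because these are the AP-1 pair that defines the family and the member with the highest level here. Each is the 250 bases before the RefSeq start (GRCm38.p6), and capitals mark matches to a cyclic AMP response core or to an AP-1-like element. The Fos window is chr12:85473640-85473889, plus strand, the Jun window is chr4:95052223-95052472, minus strand, and the Dusp1 window is chr17:26508473-26508722, minus strand.
Fos: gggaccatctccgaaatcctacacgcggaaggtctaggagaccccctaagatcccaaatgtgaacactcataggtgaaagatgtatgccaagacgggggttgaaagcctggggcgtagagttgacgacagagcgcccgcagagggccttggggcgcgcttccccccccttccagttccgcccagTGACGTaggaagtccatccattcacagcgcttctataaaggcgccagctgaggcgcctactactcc
Jun: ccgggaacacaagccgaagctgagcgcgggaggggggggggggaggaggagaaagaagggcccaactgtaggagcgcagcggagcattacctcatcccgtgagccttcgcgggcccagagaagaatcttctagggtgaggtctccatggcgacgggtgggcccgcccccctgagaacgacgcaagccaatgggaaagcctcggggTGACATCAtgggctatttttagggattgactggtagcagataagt
Dusp1: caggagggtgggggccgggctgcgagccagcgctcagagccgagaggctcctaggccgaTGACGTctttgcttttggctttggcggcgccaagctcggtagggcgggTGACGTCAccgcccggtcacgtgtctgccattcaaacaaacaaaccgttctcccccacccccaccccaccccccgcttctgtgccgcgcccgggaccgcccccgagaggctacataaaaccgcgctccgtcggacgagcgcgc
A promoter was found for 8 members, not for Egr1 and Ier2. The RefSeq starts used here can differ from the GENCODE M21 gene coordinates given below. The Jund window ends at 70697738, where the GENCODE gene starts at 70698949. The Dusp1 and Atf3 windows lie inside the GENCODE genes, which run to 26562128 and 191218039. Motifs found or missing there refer to the RefSeq start only. The core TGACGT, searched on both strands like every motif here, was found in the windows of Fos, from 66 bases before the start, Atf3, from 8 bases before it, and Dusp1, at 3 places, a pair of which overlap. It stood in 6.47% of 32851 promoter windows of the same length. The 8-letter TGACNTCA, which contains the core where N is G, was found in Jun, from 45 bases before the start, and in Dusp1, from 143 bases before it, and in 7.49% of all windows. Neither TGANTCA (6.75% of all windows) nor the CArG box bound by serum response factor (1.47%) was found in these 8 windows, which says only that these letters are not in this stretch.

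The libraries held 31897737 to 43394700 counts assigned to genes, of which 45.2% to 61.7% fell on the 2 mitochondrial ribosomal RNAs. Expression is given in counts-per-million units (CPM) scaled by trimmed mean of M values, where 3 counts, the floor used for a gene at 0, correspond to 0.0680 to 0.104 CPM. Dpy30 had 24.6, 24.2 and 31.6 CPM in controls 1 to 3 and 7.93, 5.95 and 13.7 CPM in knockouts 1 to 3. Of 9 HSC markers all were detected, but 7 were lowest in knockout 3, whose summed HSC marker level was 479 CPM against 779 to 1073 CPM in the other 5 libraries. Hlf, an HSC transcription factor, was at 27.2 CPM there against 146 to 230 CPM elsewhere. The 12 macrophage markers summed to 307 to 615 CPM in controls and to 858, 369 and 1646 CPM in knockouts 1 to 3, with none at 0 over all libraries. The 6 endothelial markers summed to 1093 to 1739 CPM in controls and to 1585, 143 and 1564 CPM in knockouts 1 to 3, so that knockout 2 stood apart for them. For some genes results are therefore also given without knockout 2 or 3. Where they are not given, this does not mean that leaving out these libraries changed nothing. In such bulk libraries, fewer cells of a type and less RNA per cell cannot be told apart.

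No difference between the genotypes was called for any of the 9 tested members. Fosb, outside the filter, is described with the FOS genes. In edgeR's quasi-likelihood test 0 of the 9 tested members had an adjusted p under 0.05, and the same held for 0% of all 13646 tested genes. At an unadjusted p under 0.05 the counts were 0 of 9 members against 6.51% of all tested genes. DESeq2 also called 0 members, where it called 1.01% of all tested genes. The knockout and control values overlapped in all 9 tested members, whereas they did not overlap in 14.1% of all tested genes. The median log2 fold change, knockout over control, was -0.51 over the 9 members and 0.01 over all tested genes. It ranged from -0.63 to -0.30 under the other scalings and moved to -0.09 without control 2. In all 9 the wider of the 2 within-genotype ranges of log2 CPM exceeded the difference between the genotype means. The range within controls alone exceeded it in 7, not in Fos and Dusp1. The shares of all tested genes were not computed. The smallest adjusted p of a member was 0.834 (edgeR), for Fos. Dpy30, the deleted gene, was not called by this test either (log2 fold change -1.55, SE 0.46; edgeR adjusted p = 0.672). A lack of calls, here and in the lists below, therefore does not show that a gene was unchanged.

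**Figure D1:**
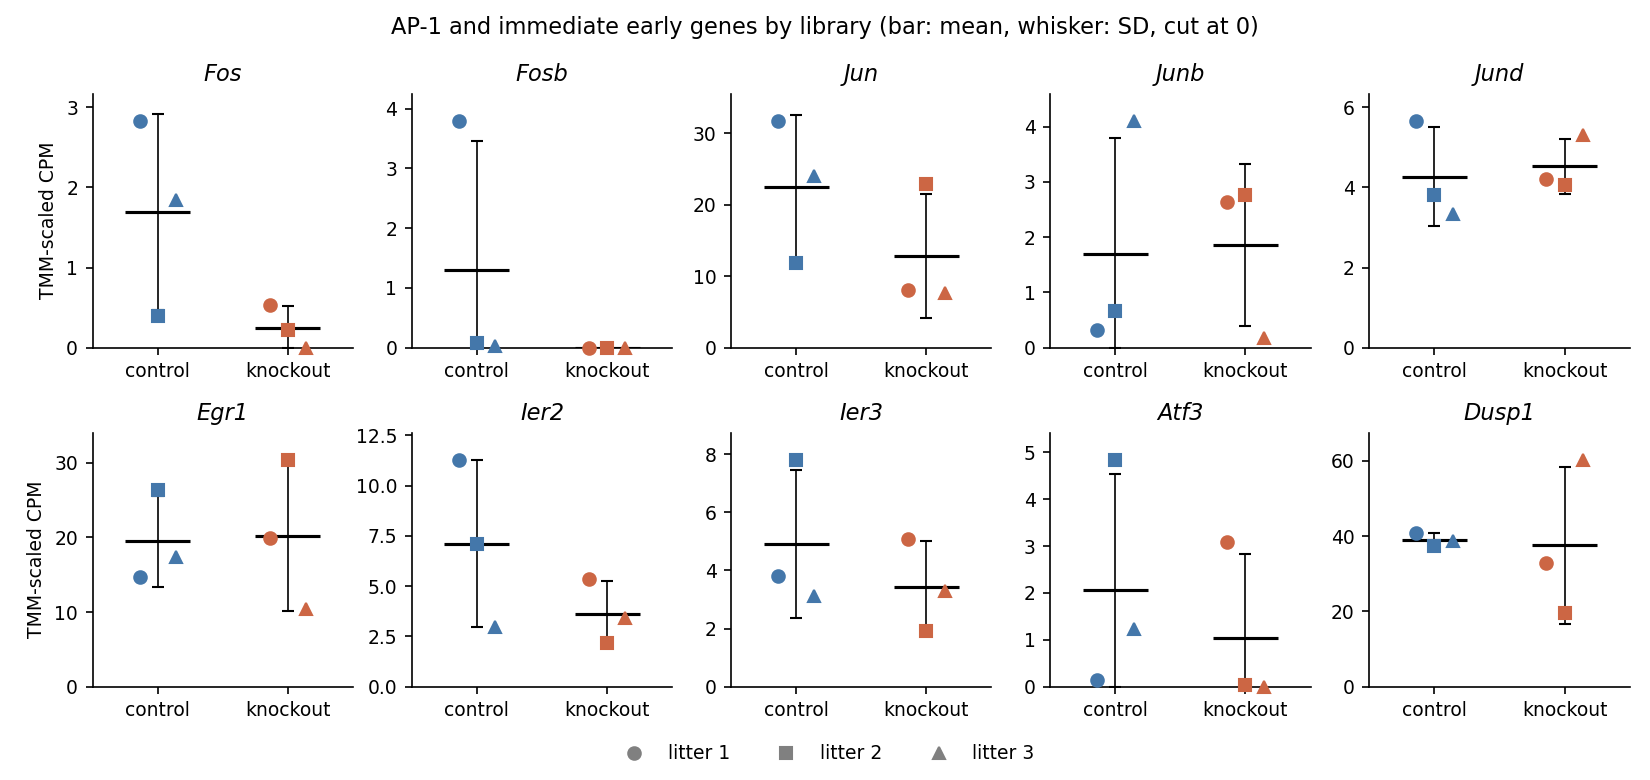
CPM of the 10 genes in each library (y axis, linear from 0), by genotype on the x axis, with the symbol giving the litter, the bar the mean and the whisker the SD of 3 libraries. Fosb is seen in control 1 at 3.80 CPM and near 0 elsewhere, Dusp1 is tight in controls and wide in knockouts, and genotypes overlap in the 9 tested genes.

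The JUN proteins are the partners that every AP-1 dimer of this family needs. Jun (ENSMUSG00000052684.4; chromosome 4, 95049034 to 95052222, minus strand, GRCm38), the founding member, had 31.8, 11.8 and 24.02 CPM in controls 1 to 3 and 8.05, 22.8 and 7.65 CPM in knockouts 1 to 3. Knockouts 1 and 3 lay below every control, while knockout 2 lay between control 2 and control 3. The means were 22.5 ± 10.04 CPM over the controls and 12.9 ± 8.66 CPM over the knockouts (SD, n = 3 libraries each). Between the genotypes the log2 fold change was -0.81 (standard error (SE) 0.60, 95% interval -2.20 to 0.58; edgeR adjusted p = 0.868). Within litters 1 to 3 the log2 ratio was -1.97, 0.94 and -1.64. Without knockout 2 the log2 fold change was -1.52, and -0.48 without control 1.

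Junb (chromosome 8, 84974484 to 84978718, minus strand), a JUN protein that often opposes JUN in proliferation, had 9, 25 and 181 counts in controls 1 to 3, against 105, 100 and 6 counts in knockouts 1 to 3. In CPM these were 0.311, 0.669 and 4.11 in controls and 2.64, 2.76 and 0.171 in knockouts. The highest and the lowest library were thus control 3 and knockout 3, from the same litter, and the exact Poisson 95% intervals of their counts, 156 to 209 and 2.20 to 13.1, do not meet. The log2 fold change was 0.13 (SE 1.44, 95% interval -3.19 to 3.45; edgeR adjusted p = 0.994). It was 1.91 without control 3 and -0.27 without knockout 2, so no direction can be given.

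Jund (chromosome 8, 70698949 to 70700616, plus strand) encodes the JUN protein that is made in resting cells and depends least on stimulation. It had 164, 142 and 147 counts in controls 1 to 3, against 167, 147 and 186 counts in knockouts 1 to 3, or 5.66, 3.80 and 3.33 CPM and 4.20, 4.05 and 5.31 CPM. All 6 libraries lay within 1.70-fold of each other. The means were 4.27 ± 1.23 and 4.52 ± 0.689 CPM (SD, n = 3 libraries each), and the log2 fold change was 0.08 (SE 0.76, 95% interval -1.67 to 1.84; edgeR adjusted p = 0.994). Its level is uncertain, since 52.6% of its exonic bases in GENCODE M21 overlap Gm11175, a gene on the opposite strand that had 0 counts in every library, and whether the counting used strand is not given in the sources used here. Of its exonic bases, Junb shares 7.52% with Prdx2 and Jun shares 7.28% with Junos, both on the opposite strand.

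FOS proteins cannot pair with themselves and act with a JUN partner. Fos (ENSMUSG00000021250.13; chromosome 12, 85473890 to 85477273, plus strand), the classic marker of recent stimulation, whose promoter is printed above, had 82, 15 and 81 counts in controls 1 to 3, against 21, 8 and 0 counts in knockouts 1 to 3. This came to 2.83, 0.401 and 1.84 CPM in controls and 0.528, 0.220 and 0 CPM in knockouts, where the 0 allows up to 0.0857 CPM. Each knockout was below the control of its litter, which held for 1 of the 9 tested members. The share of all tested genes for which it held was not computed, so this does not mark Fos out. The groups still overlapped, because control 2 was below knockout 1. The means were 1.69 ± 1.22 CPM over the controls and 0.250 ± 0.265 CPM over the knockouts (SD, n = 3 libraries each). This gave a log2 fold change of -2.74 (SE 1.66, 95% interval -6.57 to 1.09; edgeR adjusted p = 0.834). With litter as a block it was -3.08, and it ranged from -3.89 to -2.15 when 1 library was left out.

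Fosb (chromosome 7, 19302696 to 19310051, minus strand), a close relative of Fos, had 110, 3 and 1 counts in controls 1 to 3, against 0 counts in each knockout. Control 1 alone was above the floor of 3 counts, at 3.80 CPM (exact Poisson 95% interval of its count 90.4 to 133). With 1 library above that floor, a fold change between genotypes would rest on control 1 alone, and Fosb was left out of the test by the filter. All knockouts were below all controls, by as little as 1 count, as the groups of 11% of genes did not overlap when no filter was used. In that unfiltered fit Fosb was the 1 member with an unadjusted p under 0.05 (edgeR adjusted p = 0.617). Control 1 was also the highest library for Fos, Jun, Jund and Ier2, that is for 4 of the 9 tested members.

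Atf3 (chromosome 1, 191170296 to 191218039, minus strand) encodes a stress-induced factor that pairs with JUN and mostly represses. It had 4, 181 and 54 counts in controls 1 to 3, against 123, 1 and 0 counts in knockouts 1 to 3. Both genotypes therefore held libraries above 3 CPM (4.84 in control 2, 3.09 in knockout 1) and libraries below 0.14 CPM (control 1, knockouts 2 and 3). Its log2 fold change was -0.99 (SE 2.10, 95% interval -5.83 to 3.86; edgeR adjusted p = 0.965), and it was -5.25 with litter as a block, 0.63 without control 2 and -6.89 without knockout 1. Within litters 1 to 3 the log2 ratio was 4.03, -5.90 and -4.56.

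**Figure D2:**
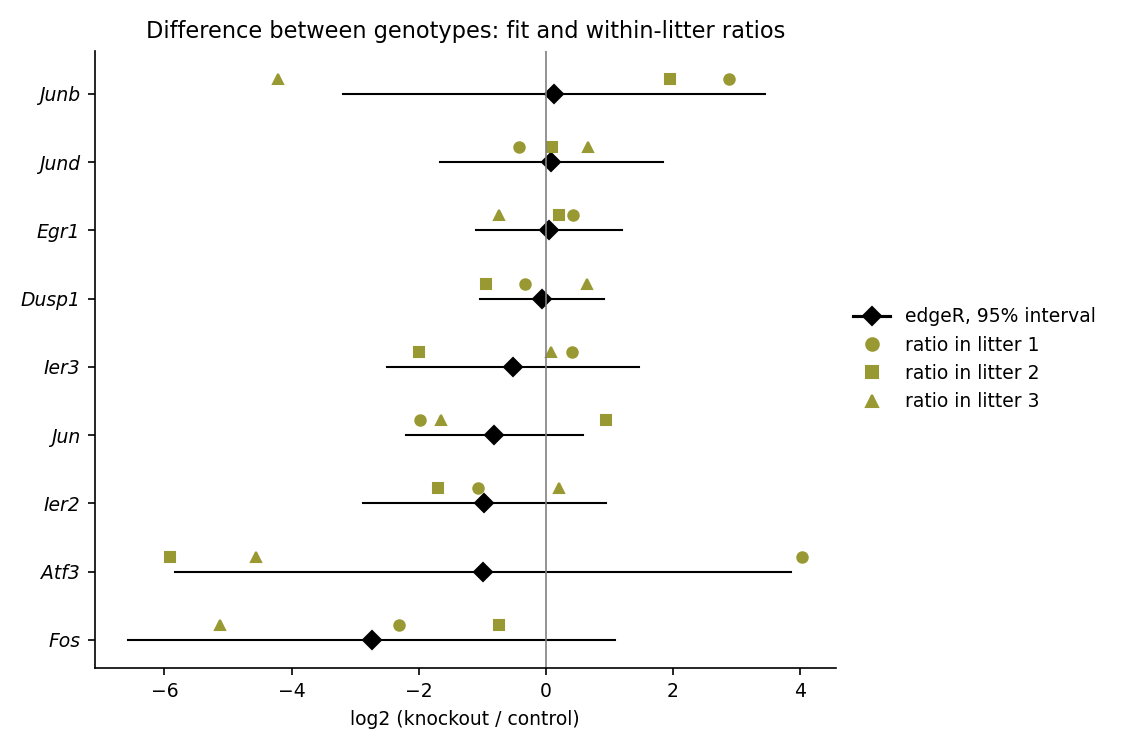
Difference between genotypes for the 9 tested genes, as log2 of knockout over control (x axis), with the edgeR estimate and its 95% interval as a diamond and line and the 3 within-litter ratios as symbols above it. All 9 intervals cross 0. Among these 9 genes all 3 litters lie on the same side of 0 for Fos alone, a count without the share of all tested genes.

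Egr1 (ENSMUSG00000038418.7; chromosome 18, 34859823 to 34864984, plus strand) encodes a zinc finger factor induced with Fos, known in adult HSCs for holding them quiescent in the niche. It had 14.7, 26.4 and 17.4 CPM in controls 1 to 3 and 19.9, 30.4 and 10.3 CPM in knockouts 1 to 3. Knockout 2 was the highest and knockout 3 the lowest of all 6 libraries, so the controls lay inside the knockout range. The means were 19.5 ± 6.10 and 20.2 ± 10.03 CPM (SD, n = 3 libraries each), with a log2 fold change of 0.05 (SE 0.50, 95% interval -1.10 to 1.20; edgeR adjusted p = 0.994). Its sign turned under upper-quartile scaling, to -0.04, and its log2 fold change ranged from -0.37 to 0.38 when 1 library was left out.

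Ier2 (chromosome 8, 84661331 to 84662852, minus strand), a small immediate early nuclear protein, had 11.3, 7.11 and 2.95 CPM in controls 1 to 3 and 5.36, 2.15 and 3.40 CPM in knockouts 1 to 3. The 2 highest libraries were controls, but control 3 was below knockouts 1 and 3. The log2 fold change was -0.97 (SE 0.83, 95% interval -2.88 to 0.94; edgeR adjusted p = 0.885), and it was -0.47 without control 1. Ier3 (chromosome 17, 35821684 to 35822923, plus strand), which modulates survival and NF-kB signalling, had 3.80, 7.81 and 3.11 CPM in controls and 5.08, 1.93 and 3.28 CPM in knockouts. Control 2 was highest and knockout 2 lowest, both from litter 2, and the remaining 4 libraries interleaved. The log2 fold change was -0.51 (SE 0.86, 95% interval -2.49 to 1.46; edgeR adjusted p = 0.954), and it fell to nearly 0 (-0.0036) in 1 of the fits that left out a library, without control 2.

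Dusp1 (ENSMUSG00000024190.7; chromosome 17, 26505590 to 26562128, minus strand) encodes a phosphatase that switches off the MAP kinases that induce the other genes. It had 40.9, 37.5 and 38.6 CPM in controls 1 to 3 and 32.7, 19.6 and 60.3 CPM in knockouts 1 to 3. The controls lay within 1.09-fold of each other, while the knockouts spread over 3.08-fold and enclosed them. The means were 38.99 ± 1.76 and 37.5 ± 20.8 CPM (SD, n = 3 libraries each), and the log2 fold change was -0.06 (SE 0.42, 95% interval -1.03 to 0.92; edgeR adjusted p = 0.990). Knockout 2, its lowest library, was also lowest for the endothelial markers, and knockout 3, its highest, was highest for the macrophage markers. Their part in the Dusp1 values was not tested. The log2 fold change was 0.26 without knockout 2 and -0.56 without knockout 3.

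Levels were compared between genes per kilobase of exonic sequence in GENCODE M21. In controls Dusp1 was highest at 11.8 ± 0.532 CPM per kilobase, followed by Jun at 7.07 ± 3.15, Ier2 at 4.68 ± 2.74, Egr1 at 4.35 ± 1.36, Ier3 at 4.34 ± 2.24 and Jund at 2.56 ± 0.739 (SD, n = 3 libraries each). Atf3 at 0.960 ± 1.14, Junb at 0.737 ± 0.911, Fos at 0.719 ± 0.520 and Fosb at 0.208 ± 0.347 were lowest. Neighbours in this order differed by more than the larger of their SDs only between Dusp1 and Jun and between Jund and Atf3. In knockouts Dusp1 was again first, at 11.3 ± 6.28, and the next were Egr1 at 4.50 ± 2.24 and Jun at 4.03 ± 2.72 CPM per kilobase (SD, n = 3 libraries each). Dusp1, Egr1 and Jun together held 74.4% to 86.7% of the summed CPM of the 10 genes in each library. That sum was 115, 100.4 and 96.5 CPM in controls 1 to 3 and 81.5, 83.9 and 90.5 CPM in knockouts 1 to 3. The knockout sums all lay below the control sums, a difference that was not tested.

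The members did not move as 1 block across the libraries. The SD of log2 CPM over the 6 libraries was 0.29 for Jund, 0.53 for Dusp1 and 0.56 for Egr1, below the median of 0.83 over all tested genes, and 1.75 for Junb, 2.06 for Fos and 2.78 for Atf3, above the upper quartile of 1.67. The 3 with a wide spread were also the 3 tested members with the lowest mean level. Likeness was measured as the root mean square difference between log2 CPM profiles centred on each gene's mean. By this measure Jund and Dusp1 were each other's nearest member (0.44), and so were Ier2 and Ier3 (0.58). The nearest member of Fos was Jun, at 1.42, and Atf3 was the farthest member for each of the other 8. The profiles were not scaled, so this measure depends on the SDs above. It places Atf3, with the largest SD, far from the rest and genes with a small SD near each other, and does not show shared regulation. Knockout 3 was the lowest library for 5 of the 9 (Fos, Jun, Junb, Egr1 and Atf3) and the highest for Dusp1, and knockout 2 was lowest for Ier2, Ier3 and Dusp1. Knockouts 2 and 3 also had the fewest genes with any count, 14674 and 13972. The share of all genes lowest in each library was not computed, so these counts cannot be called particular to the members.

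**Figure D3:**
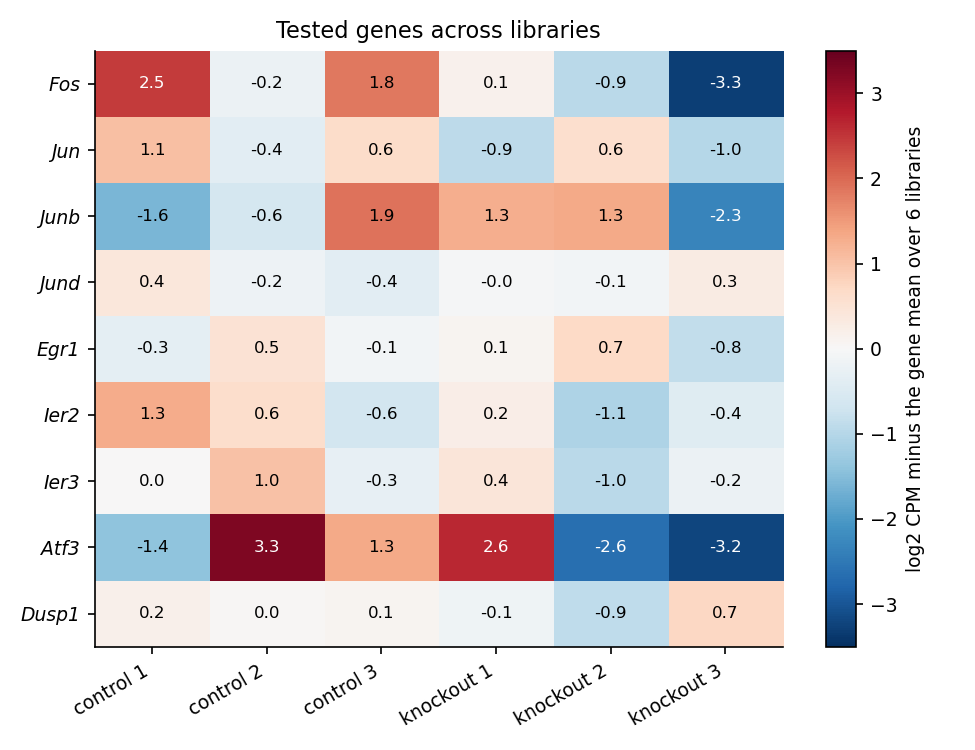
Log2 CPM of the 9 tested genes (rows) in the 6 libraries (columns), minus each gene's mean over the libraries, with red above and blue below that mean. Knockout 3 is low for Fos, Junb and Atf3, while Jund and Dusp1 stay within 1 unit of their mean in every library.

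**Figure D4:**
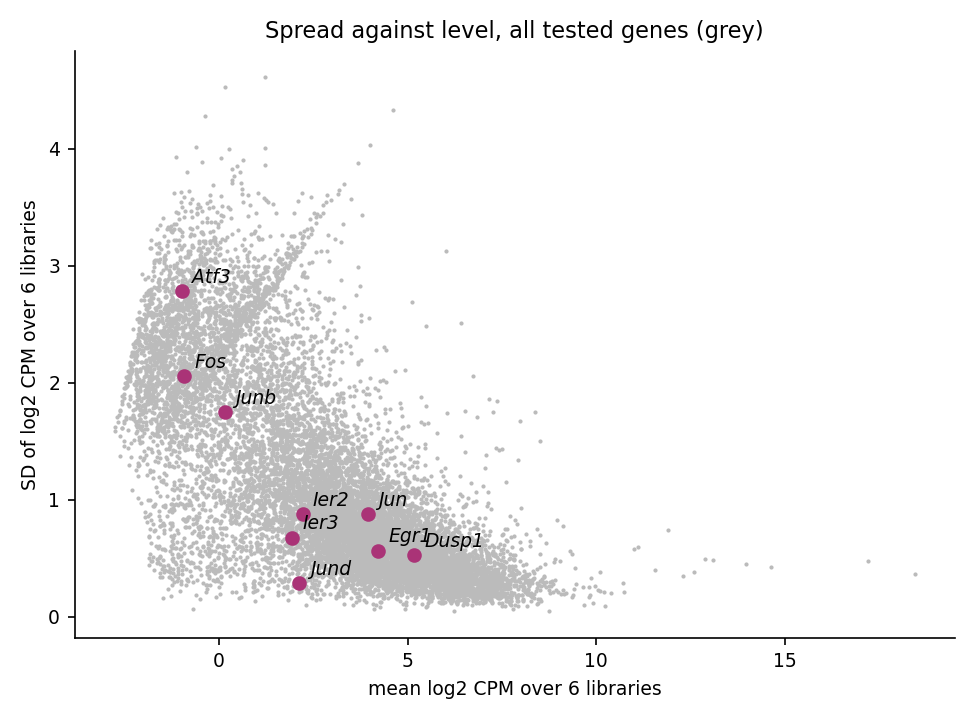
Mean log2 CPM (x axis) against the SD of log2 CPM over the 6 libraries (y axis) for all 13646 tested genes in grey and the 9 tested members in purple. Atf3, Fos and Junb lie at low level and high spread, and Jund has the smallest SD of the 9, at 0.29.

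Among 9015 other genes with a mean of at least 5 CPM, the 5 nearest to the mean profile of the members included Suv420h1 (0.12), Gm12940 (0.13), Rint1 (0.15) and Rnf41 (0.15). This list did not hold when the data changed: 0 to 2 of these 5 genes remained among the nearest 5 in the fits that left out 1 library.

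No difference was called in the rest of the AP-1 family either. Of 11 other AP-1, ATF, BATF and small MAF genes, 9 were tested, 0 had an adjusted or unadjusted p under 0.05 in edgeR, DESeq2 called 0, and the median log2 fold change was 0.08. Maff, a small MAF protein that lacks an activation domain and dimerises with larger partners, had 58, 67 and 50 counts in controls 1 to 3, against 25, 0 and 0 counts in knockouts 1 to 3. Every knockout was below every control, which held for 1 of these 9 genes and for 7.74% of all tested genes. Its log2 fold change was -2.94, with an SE of 1.93 (edgeR adjusted p = 0.849). Without knockout 1, the 2 knockouts left are at 0.

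Further genes of this family are named here after their values were seen. Fosl2, a FOS protein found in many differentiated cell types, had 13.6, 42.02 and 14.4 CPM in controls 1 to 3 and 21.9, 2.40 and 120.3 CPM in knockouts 1 to 3. Knockout 3 was far above and knockout 2 far below every other library. Its log2 fold change of 1.05, with an SE of 1.11 (edgeR adjusted p = 0.910), turned to -0.93 without knockout 3. The endothelial markers were also lowest in knockout 2, at 143 CPM in sum, and the macrophage markers highest in knockout 3, at 1646 CPM, and their part in the Fosl2 values was not tested. Mafk, another small MAF gene, had 423, 725 and 713 counts in the controls, against 407, 628 and 28 in the knockouts, so that its lower mean in knockouts came mainly from knockout 3.

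The other immediate early genes gave the same picture. Of 30, 24 were tested, 0 had an adjusted or unadjusted p under 0.05 in edgeR, DESeq2 called 0, and the median log2 fold change was 0.19, with 16 positive and 8 negative values. Nr4a2, an orphan nuclear receptor induced by the same signals, had 192, 60 and 282 counts in controls 1 to 3, against 53, 8 and 2 counts in knockouts 1 to 3. All knockouts lay below all controls, which held for 1 of the 24 genes and for 7.74% of all tested genes, and the log2 fold change was -3.17, with an SE of 1.40 (edgeR adjusted p = 0.775), ranging from -5.10 to -2.63 when 1 library was left out. Within litters 1 to 3 the log2 ratio was -2.27, -2.59 and -5.86. Outside the tested genes, and also named after their values were seen, Egr3, a sister gene of Egr1, had 4 counts in knockout 1 and 0 in the other 5 libraries. Gadd45b, a stress-induced gene, had 9 counts in control 3, 2 in knockout 1 and 0 elsewhere.

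More genes of this list are named after their values were seen. Myc, the growth-promoting factor, was at 211, 179 and 211 CPM in controls 1 to 3 and 297, 347 and 209 CPM in knockouts 1 to 3. Its log2 fold change was 0.50, with an SE of 0.24 (edgeR adjusted p = 0.775), and 0.34 at the lowest when 1 library was left out. Mcl1, an anti-apoptotic protein of short half-life, stayed between 122 and 167 CPM in all 6 libraries. Btg2, an antiproliferative target of p53, had 70.3 CPM in knockout 3 against 4.60 to 11.3 CPM in the other 5 libraries, and its log2 fold change was 1.99 with all libraries and 0.22 without knockout 3. Over the 24 tested genes, knockout 2 was the lowest library for 9 and knockout 3 the highest for 9, counts for which the share over all genes was not computed.

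Kinases and promoter-bound factors that induce these genes did not separate the genotypes by edgeR or DESeq2. All 24 genes of this list, from Ras proteins through MAP kinases to SRF and its cofactors, were tested, 0 had an adjusted or unadjusted p under 0.05 in edgeR, DESeq2 called 0, and the median log2 fold change was 0.02. Every knockout was below every control for 3 genes and above for 1, against 7.74% and 6.39% of all tested genes. The largest of these differences was in Map2k7, a kinase that activates JNK, with 28.5, 35.8 and 39.6 CPM in controls 1 to 3 and 22.1, 25.9 and 14.1 CPM in knockouts 1 to 3 (log2 fold change -0.74, SE 0.37; edgeR adjusted p = 0.795). For Mapk14, which encodes p38 alpha, the log2 fold change was -0.33, and -0.15 without control 2. Mkl1, an SRF cofactor, had a log2 fold change of 0.64, which was 0.20 without knockout 3. The median of the list was -0.11 under upper-quartile scaling and 0.25 with scaling by library size alone, settings that moved the median of all tested genes to -0.10 and 0.23.

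As a check for stress from isolation, 17 heat shock, metallothionein and related stress genes were examined. Of 16 tested, 0 had an adjusted p under 0.05 in edgeR, 3 had an unadjusted p under 0.05, all with a higher knockout mean (4.26% of all tested genes), and DESeq2 called 0 and gave Hspa1a no adjusted p. The median log2 fold change was 0.21. The constitutive chaperone Hsp90ab1, named after its values were seen, was at 1817, 1836 and 1830 CPM in controls 1 to 3 and at 1361, 1990 and 1504 CPM in knockouts 1 to 3. The stress-inducible chaperone Hspa1a had 21, 1 and 0 counts in controls 1 to 3, against 35, 787 and 48 counts in knockouts 1 to 3. Every knockout was thus above every control, which held for 2 of the 16 tested genes and for 6.39% of all tested genes. For Hspa1a the gap was small in knockout 1, and knockout 2 stood far above the rest at 21.7 CPM. With an SE of 2.10 its log2 fold change was 5.0 (edgeR adjusted p = 0.761), with 2.2 without knockout 2 and 8.97 without control 1, when the controls left hold 1 and 0 counts. Reads of Hspa1a and its near-identical neighbour Hspa1b can be hard to assign, so both are uncertain.

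In knockout 2, the library with the most Hspa1a, the members stood at different places in their own range. Egr1 was the highest of all 6 libraries there (30.4 CPM), Junb the second highest (2.76 CPM), Jun inside the control range (22.8 CPM), and Ier2, Ier3 and Dusp1 the lowest, with 8 counts of Fos, 1 of Atf3 and 0 of Fosb. In control 1, the library with the most Fos and Fosb, Hspa1a had 21 counts, the most of the 3 controls, and Atf3 had 4. The other 2 of the 3 genes with an unadjusted p under 0.05, named for that reason after their values were seen, were Mt2, a metallothionein, and Cebpb, a factor of inflammation and myeloid cells. Mt2 had 737 CPM in knockout 3 against 68.5 to 148 CPM in the other 5 libraries, and its log2 fold change of 1.84 was 0.30 without knockout 3. Cebpb had 101, 9 and 331 counts in knockouts 1 to 3 and 17, 10 and 13 counts in controls 1 to 3, which puts knockout 2 below every control. Of the 12 macrophage markers, 7 had an unadjusted p under 0.05 with a higher knockout mean, against 4.26% of all tested genes. Their sum was lower in knockout 2 than in knockouts 1 and 3, and their part in the Cebpb and Mt2 values was not tested.

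Textbook targets of AP-1 were read last. Of 15, 10 were tested, 0 had an adjusted p under 0.05 in edgeR, 2 had an unadjusted p under 0.05 with a higher knockout mean (4.26% of all tested genes), and the median log2 fold change was 0.95. Among these 2 was Mmp13, and with Mmp13 left out of the list, a step chosen after seeing the data, the median was 0.44. Every knockout was above every control for 3 of the 10, Mmp13, Nqo1 and Cd44, against 6.39% of all tested genes. Mmp13, a collagenase, was put in the list with its difference in these data already known, and is therefore no independent evidence. It was at 0 in all 3 controls, and knockouts 1 to 3 held 166, 789 and 512 counts, at least 161-fold higher in mean CPM than the mean floor of 3 counts per control library (edgeR adjusted p = 0.539). Nqo1, a quinone reductase, had 8.05, 3.90 and 1.84 CPM in controls 1 to 3 and 18.6, 8.74 and 10.4 CPM in knockouts 1 to 3 (log2 fold change 1.45, SE 0.74; edgeR adjusted p = 0.795). Cd44, a hyaluronan receptor, had 108, 119 and 115 CPM in controls and 132, 162 and 170 CPM in knockouts (log2 fold change 0.44, SE 0.20; edgeR adjusted p = 0.775).

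Hmox1, which degrades haem and was named after its values were seen, was the second target with an unadjusted p under 0.05. It had 43.03, 27.9 and 35.9 CPM in controls 1 to 3 and 135, 39.8 and 218 CPM in knockouts 1 to 3, so that knockout 2 overlapped the controls. With an SE of 0.55 its log2 fold change was 1.88 (edgeR adjusted p = 0.672), and DESeq2 called Hmox1 and Mmp13 alone in this list. Hmox1 is also expressed in macrophages, and the macrophage marker sum was likewise lowest among the knockouts in knockout 2. The part of these cells in the result was not tested.

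**Figure D5:**
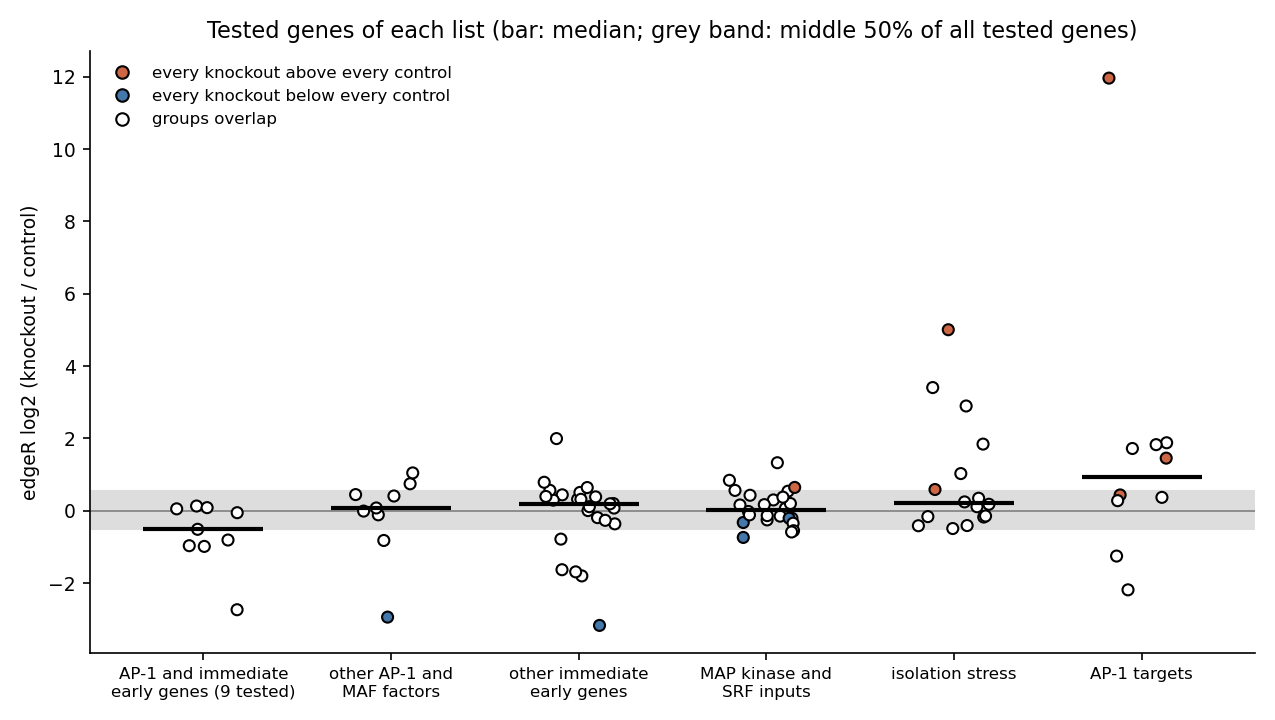
EdgeR log2 fold change, knockout over control (y axis), of each tested gene in the 6 lists (x axis), with bars at the list medians, the grey band holding the middle 50% of all tested genes, and filled points where the genotypes do not overlap. The 9 tested AP-1 and immediate early genes all overlap, with a median of -0.51, and the highest point is Mmp13 among the AP-1 targets.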

How the data were processed

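For each of the 6 libraries the authors deposited unnormalized, whole-number read counts by gene symbol. Per the labels' protocols, RNA was selected for poly(A) in 2 rounds. The submitters' processing notes name CASAVA 1.8.4, TopHat2, Picard 1.126, HTSeq 0.6.0, DESeq 3.0 and bedtools 2.17.0 with mm10. Annotation and strandedness are not given in the sources used here. No molecular tags are described, so intervals cover counting error only. The 5 tallies of unassigned reads (41.0% to 51.0% of all reads) were left out.

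Genes passing edgeR's filterByExpr (13646) were scaled by TMM and tested with glmQLFit and glmQLFTest (edgeR 4.0.16, R 4.3.3), leaving litter out of the model. P-values were adjusted by Benjamini-Hochberg over all tested genes and a threshold of 0.05. DESeq2 1.42.0 was an alternative. SE is the absolute fold change (log2) divided by the root of F, and 95% intervals use it with the fit's degrees of freedom. Log2 CPM uses a prior count of 2. Scripts were tested on simulated counts. The members and lists were chosen with earlier results of these data known. Besides the 10 members, genes were named by rule (up to 5 per list whose genotypes do not overlap, by size of change), and others are said to be named after their values were seen. Some genes are not reported here. For 1 marker, the files' symbol Emr1 was matched through RefSeq synonyms. The labels pair libraries by litter. Deviations from the genotype means correlated at -0.08 to 0.003 within litters across genes. P-values measure the spread between these libraries. With 3 against 3, an exact permutation test cannot go below 0.1.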

Additional observations from a re-analysis of the deposited data

How the results depend on the processing

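With litter as a replicate block, the pairing of the labels, 0 members and 0 of all genes were called, as without it, and no call changed. The median of the MAP kinase and SRF inputs went from 0.02 to -0.075 and the sign of Egr1 turned (-0.034), as did the medians of the other immediate early genes (0.19 to -0.17) and the other AP-1 genes (0.08 to -0.041). Members called stayed at 0 in every alternative run, with adjusted p from 0.350 to 1.00 over 123 member values, 107 of which kept their direction. The count over all genes, 0, became 138 with DESeq2, 1 without a filter on low counts and 1 with at least 10 counts in every sample. Upper-quartile scaling turned the sign of Egr1 (-0.043), Jund (-0.046) and Mcl1 (-0.042) and moved the kinase list to -0.11. Scaling by library size only turned Dusp1 (0.15) and Hsp90ab1 (0.011) and moved the kinase list to 0.25. DESeq2 called Hmox1 and Mmp13. Without a filter, 1 member, Fosb, did not overlap and the AP-1 target median was 1.58, and with at least 10 counts in every sample it was 0.42 and the stress median -0.031. The cause was not tested.

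Leaving out 1 library at a time, the count of all genes called ranged from 0 to 0 and that of members from 0 to 0. Members that did not overlap ranged from 1 to 2 of 9, against 21.0% to 30.6% of all genes tested in those fits. Medians ranged from -0.76 to -0.087 for the members, from -0.078 to 0.13 for the kinase list, from -0.29 to 0.43 for the other AP-1 genes, from -0.036 to 0.28 for the other immediate early genes, from -0.048 to 0.30 for stress genes and from 0.40 to 1.66 for AP-1 targets, so that the kinase, AP-1, immediate early and stress medians had no settled direction. Single genes ranged from -6.89 to 0.63 for Atf3, from -0.37 to 0.38 for Egr1, from -0.36 to 1.91 for Junb, from -0.066 to 0.34 for Jund, from -0.56 to 0.26 for Dusp1, from -0.93 to 1.77 for Fosl2 and from -0.073 to 0.16 for Mcl1. Fos, Fosb, Junb and Atf3 had few counts in some libraries and many more in others, and a moderate change in them was not detectable at this spread.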
